A study of Mus musculus with 6 samples.

Results

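The tricarboxylic acid (TCA) cycle and the enzymes linked to it were followed in mouse fetal liver cells during 30 h of erythroid culture. The set holds 30 genes chosen by name: the pyruvate dehydrogenase complex with its kinases and phosphatase, the enzymes of the cycle, the malate-aspartate shuttle, and enzymes that fill or drain the cycle. All 30 were found among the 54232 gene IDs of the count files, and all 30 passed the filter on low counts, with between 84 and 30496 counts per gene and library. The choice set no threshold on measured values, but it was made with earlier results of these data known.

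Cells came from E13.5 fetal livers of C57/B6 mice and were purified as Ter-119 negative, which leaves out cells with that marker of late erythroid stages. The day 0 group holds 3 libraries of the purified, untreated cells. The 30h group holds 3 libraries of such cells grown in medium with erythropoietin (EPO), the hormone that drives red cell production, with the solvent DMSO added at 24 h for the last 6 h. All libraries are labelled as progenitor cells and carry no genetic change by their labels. Separate animals or cultures are not mentioned in the labels, so the spread behind each p-value is only that between samples and may be technical. Culture time, EPO and DMSO differ together between the groups and cannot be told apart.

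The cycle oxidizes acetyl groups, made from pyruvate by the pyruvate dehydrogenase complex, to carbon dioxide and passes electrons to the respiratory chain. Its intermediates are also building blocks: citrate leaves for lipid synthesis, oxaloacetate for aspartate, and 2-oxoglutarate for glutamate. In erythroid cells succinyl-CoA has a further use, since mitochondria join it with glycine in the first step of heme synthesis.

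Library totals ranged from 19241780 to 29949173 counts. Replicates at 30 h were less alike than at day 0: the median coefficient of variation of the 30 genes was 2.5% at day 0 and 10.9% at 30 h. The 30h replicates 1 and 3 lay at the extremes. Replicate 3 had the lowest of the 30 h levels in 17 of the 30 genes and the highest in 10. Replicate 1 had the highest in 19 and the lowest in 8. Counts of called members are therefore also given without replicate 3 and without replicate 1. All 8 erythroid markers rose, and their summed level went from between 1299 and 1375 CPM to between 14594 and 18019 CPM. Markers of other cells were present at day 0. The 10 hepatoblast markers (9 fell, 1 was not called) summed to between 13422 and 15134 CPM at day 0 and to 805, 2165 and 2345 CPM in 30h replicates 1, 2 and 3. The 7 mesenchyme markers (6 fell) went from between 1121 and 1434 CPM to between 28.5 and 82.1 CPM, and the 7 endothelial markers (7 fell) from between 172 and 199 CPM to between 30.4 and 38.4 CPM. The 7 macrophage markers (2 rose, 3 fell) summed to between 190 and 215 CPM and then to between 117 and 175 CPM. The sums of the other blood lineages were higher in most 30 h libraries. The 6 granulocyte and mast cell markers (2 rose, 3 fell) went from between 3054 and 3158 CPM to 3540, 3680 and 5536 CPM in 30h replicates 1, 2 and 3. The 6 megakaryocyte markers (1 rose, 3 fell) went from between 534 and 632 CPM to 560, 837 and 956 CPM. No marker of these lists was at 0 in all 30 h libraries. In such bulk samples, fewer cells of a type and less RNA per cell cannot be told apart.

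The 30 genes did not move together. By edgeR's quasi-likelihood test at an adjusted p under 0.05, 8 were higher at 30 h, 12 were lower and 10 were not called. Of all 16150 genes tested, 34.4% were higher and 40.1% lower, together 74.5%, so the 20 called members are near the background. Changes of at least 2-fold were seen in 4 members upward (20.6% of all genes) and 5 downward (28.2% of all genes). The median log2 change was -0.20 over the members and -0.09 over all genes tested. Without 30h replicate 3 the counts were 10 higher and 15 lower, while 37.0% and 41.7% of all genes then tested were called (78.7% together), so the larger member count goes with a larger background. Without 30h replicate 1 the counts were 9 higher and 14 lower. No share of all genes is given here for that run, so these counts are not set against a background. Tested against a 1.5-fold change, 5 members were higher and 8 lower, where 23.6% and 30.2% of all genes were called (53.8% together).

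**Figure D1:**
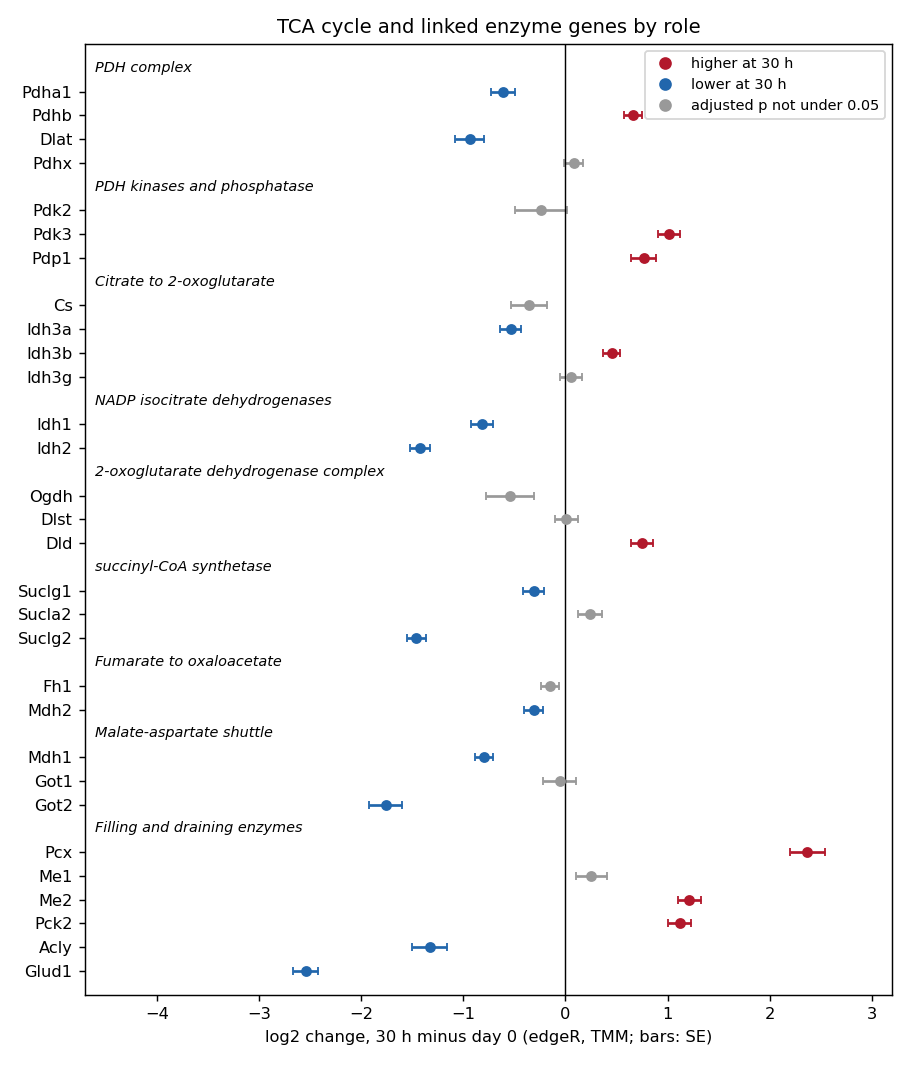
The log2 change from day 0 to 30 h (horizontal axis) is plotted for each of the 30 genes, grouped by role, with bars for the SE (edgeR, n = 3 libraries per group). Pcx stands farthest to the right at 2.37 and Glud1 farthest to the left at -2.54, both in the group of enzymes that add or draw off carbon.

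Scaling bears on these counts. Globin genes held 10.4% ± 2.44 (SD, n = 3) of counts at 30 h, against 0.121% ± 0.00927 (SD, n = 3) at day 0. With globin genes left out and the main scaling (TMM) kept, the members stayed at 8 higher and 12 lower. How far the globin share accounts for the effect of scaling was not tested. With scaling by library totals only, the median log2 change of all genes went from -0.09 to -0.58, and the members split into 5 higher and 20 lower. All genes then split into 22.3% higher and 54.4% lower (76.7% together). The members together held 0.775%, 0.773% and 0.760% of all counts in the day 0 libraries and 0.472%, 0.457% and 0.394% in the 30h libraries. The groups did not overlap, and the mean share at 30 h minus that at day 0 was -0.328 percentage points (two-sided exact permutation p = 0.1, the lowest possible with 3 libraries a side). With globin genes left out of the total, the share went from 0.770% ± 0.00811 to 0.492% ± 0.0337 (SD, n = 3 each).

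**Figure D2:**
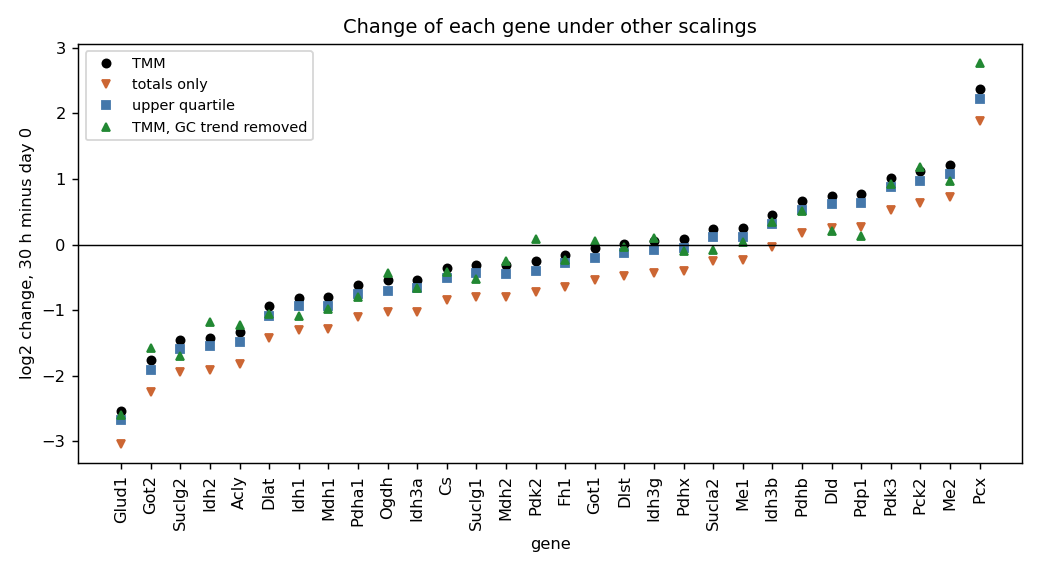
Each gene's log2 change (vertical axis) is shown under TMM, totals-only and upper-quartile scaling and with each library's GC trend removed, with genes ordered by the TMM value. Totals-only values lie below the TMM values for every gene, and Pcx, Me2, Pck2, Pdk3, Pdp1, Dld and Pdhb stay above 0 under all 4 settings.

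Enzymes that add carbon to the cycle or draw it off showed the largest changes in both directions. Pcx, pyruvate carboxylase, which makes oxaloacetate from pyruvate (chromosome 19, 4510472 to 4621752, mm10), stood at 38.1, 39.3 and 34.0 CPM in the day 0 libraries and at 229, 198 and 148 CPM in the 30 h libraries. The lowest 30 h library was far above the highest day 0 library, and Pcx rose 5.16-fold (log2 change 2.37, SE 0.17, edgeR adjusted p = 9.8942e-06). Me2, the mitochondrial malic enzyme, which turns malate into pyruvate, went from 132, 135 and 136 CPM to 350, 312 and 273 CPM. It rose 2.32-fold (edgeR adjusted p = 3.4588e-05), with no overlap between groups. Pck2, the mitochondrial phosphoenolpyruvate carboxykinase, which draws off oxaloacetate, went from 129, 127 and 130 CPM to 314, 277 and 248 CPM. That was a 2.17-fold rise (edgeR adjusted p = 4.5612e-05). In each of these 3 genes 30h replicate 1 was the highest and replicate 3 the lowest of the 30 h libraries, and all 3 kept the call in every alternative run.

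The sequence before the first start site of Pcx is shown because Pcx had the largest rise of the 30 genes (RefSeq, GRCm38.p6, chr19:4510222-4510471, plus strand, 5′ to 3′). Capitals mark CACGTG, the E-box bound by MYC-type factors, and CCAAT, the box bound by NF-Y, each read on both strands.
Pcx: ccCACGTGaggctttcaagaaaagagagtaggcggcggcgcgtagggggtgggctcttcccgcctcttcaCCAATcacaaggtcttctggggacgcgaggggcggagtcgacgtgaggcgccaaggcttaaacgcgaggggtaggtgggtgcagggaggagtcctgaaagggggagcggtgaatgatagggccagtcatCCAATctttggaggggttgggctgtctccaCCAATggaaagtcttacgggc
RefSeq promoter entries were matched for 27 of the 30 genes, in 36 windows of 250 bases before a start site, some genes having several. CCAAT was in 19 of these windows (52.8%, against 33.8% of all 32851 windows) and CACGTG in 5 (13.9%, against 6.02%). GATAA, the core of the GATA factor motif, was in 7 (19.4%, against 22.6%), and the NRF1 consensus motif in 1 (2.78%, against 3.74%). Counted by gene, CCAAT was found for 16 of the 27, CACGTG for 3, GATAA for 6 and the NRF1 motif for 1. Windows of the same gene are thus counted more than once, and no share by gene over all genes is given here. CACGTG is its own reverse complement, no motif lies within another of the 4, and a match describes letters only.

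Glud1 and Acly went the other way. Glud1, glutamate dehydrogenase, which links glutamate to 2-oxoglutarate (chromosome 14, 34310727 to 34345265), was the most abundant of the 30 per kb of exon at day 0. It stood at 862, 864 and 736 CPM at day 0 and at 126, 144 and 153 CPM at 30 h. The groups were wide apart, and Glud1 fell 5.83-fold (log2 change -2.54, SE 0.12, edgeR adjusted p = 1.7496e-06). Glud1 was among the 8 of the 30 genes, some risen and some fallen, that were lowest in 30h replicate 1. The summed hepatoblast markers were also lowest there, at 805 CPM, and their part in the result was not tested. Acly, which splits exported citrate into acetyl-CoA for lipid synthesis, went from 463, 474 and 448 CPM to 221, 194 and 136 CPM, a 2.51-fold fall (edgeR adjusted p = 0.0002115). Me1, the cytosolic malic enzyme, was scarce at 5.26, 4.44 and 5.31 CPM at day 0 and 6.46, 6.08 and 5.29 CPM at 30 h. Its groups overlapped and it was not called (edgeR adjusted p = 0.161).

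Among the linked genes of a separate list, carriers that serve these reactions also differed. Slc25a1, which exports citrate to Acly, fell from 166 ± 4.09 to 92.9 ± 8.56 CPM (SD, n = 3 each, edgeR adjusted p = 0.0001322). Slc25a21, the carrier of 2-oxoadipate and 2-oxoglutarate, rose from 32.6 ± 1.63 to 89.1 ± 8.21 CPM (edgeR adjusted p = 1.014e-05). Of the 7 carriers of dicarboxylates, citrate and glutamate, 1 rose and 4 fell (71.4% called, against 74.5% of all genes). Of 8 glutamine and aminotransferase genes 1 rose and 4 fell (62.5% called, against the same 74.5%). The most abundant of these was Psat1, an aminotransferase of serine synthesis that yields 2-oxoglutarate. It stood at 792 ± 24.6 and 461 ± 32.0 CPM (edgeR adjusted p = 0.00013353).

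At the entry of the cycle, subunits of the pyruvate dehydrogenase complex moved in opposite directions. Pdha1, the alpha subunit of its E1 component, stood at 301, 281 and 298 CPM at day 0 and at 216, 193 and 167 CPM at 30 h. It fell 1.53-fold (edgeR adjusted p = 0.0015736). Pdhb, the beta subunit of the same component, went from 107, 106 and 106 CPM to 177, 164 and 164 CPM and rose 1.58-fold (edgeR adjusted p = 0.00020746). Neither gene's groups overlapped. Per kb of exon, the ratio of Pdha1 to Pdhb was 2.92, 2.74 and 2.90 at day 0 and 1.26, 1.22 and 1.05 at 30 h, a pair chosen after its values were seen. Opposite-strand exons of Map3k15 cover 16.1% of the exon bases of Pdha1, and Map3k15 had at most 127 counts in any library.

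The other subunits of the complex also differed from each other. Dlat, the E2 acetyltransferase, went from 175, 175 and 174 CPM to 108, 91.6 and 73.8 CPM, a 1.92-fold fall (edgeR adjusted p = 0.00045658). Pdhx, the protein that anchors E3, overlapped between groups at 57.7, 55.4 and 59.3 CPM and then 59.2, 62.5 and 60.4 CPM (edgeR adjusted p = 0.44381). Dld, the E3 subunit shared with the 2-oxoglutarate and branched-chain complexes, stood at 236, 219 and 234 CPM and then at 359, 363 and 436 CPM. It rose 1.68-fold (edgeR adjusted p = 0.00037883), but after removal of the GC trend its log2 change of 0.75 became 0.21 (adjusted p = 0.06846 in edgeR). The rise of Pdhb ended with totals-only scaling (log2 change 0.17, edgeR adjusted p = 0.106).

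Of the genes that switch the complex off and on, Pdk3 and Pdp1 rose and Pdk2 was not called. Pdk3, a kinase that inhibits E1, went from 65.3, 67.2 and 65.2 CPM to 146, 135 and 118 CPM, a 2.02-fold rise (edgeR adjusted p = 6.1403e-05). Pdk1, a kinase of the same family from the separate list, rose 2.04-fold, from 187 ± 10.3 to 382 ± 20.8 CPM (SD, n = 3 each, edgeR adjusted p = 3.2081e-05). Pdk4, another such kinase, was scarce and fell from 1.61 ± 0.314 to 0.272 ± 0.182 CPM (edgeR adjusted p = 0.0009854). Pdp1, the phosphatase that reactivates E1, was low at 9.56, 8.57 and 10.2 CPM and rose to 15.1, 15.7 and 17.4 CPM (1.70-fold, edgeR adjusted p = 0.00062963). Pdp2, a phosphatase with the same substrate from the separate list, went the other way, from 21.2 ± 0.579 to 12.9 ± 2.63 CPM (edgeR adjusted p = 0.00312). The Pdp1 call ended with the GC trend removed (log2 change 0.13, edgeR adjusted p = 0.318) and with totals-only scaling (0.27, adjusted p = 0.07292). Pdk2 spread widely at 30 h, with 18.6, 14.1 and 8.25 CPM around its day 0 values of 16.2, 17.1 and 15.4 CPM (edgeR adjusted p = 0.40705). Without 30h replicate 1 Pdk2 passed as lower (log2 change -0.48, edgeR adjusted p = 0.04523). Mpc2, a subunit of the carrier that brings pyruvate into mitochondria, rose from 82.8 ± 3.59 to 186 ± 46.3 CPM (edgeR adjusted p = 0.00038966).

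**Figure D3:**
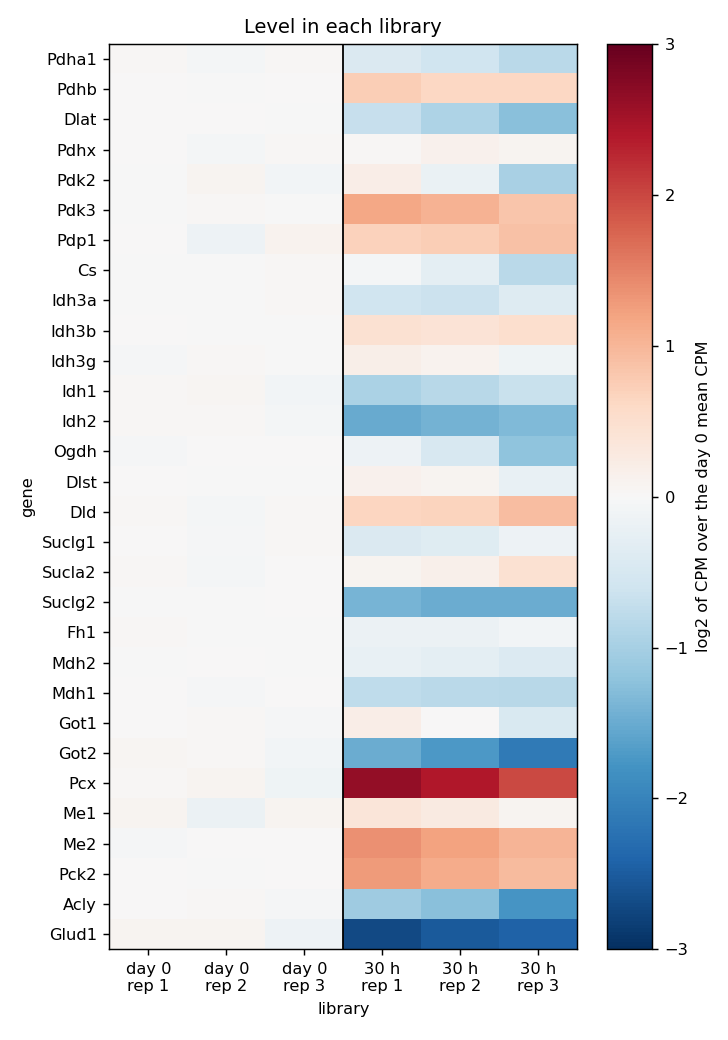
Each cell shows the log2 of a gene's CPM in 1 library over that gene's day 0 mean, for the 30 genes (rows) and 6 libraries (columns). Day 0 columns are nearly uniform, whereas at 30 h genes such as Cs, Ogdh, Pdk2 and Acly are lowest in replicate 3.

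From citrate to 2-oxoglutarate, the subunits of 1 enzyme again split. Cs, citrate synthase, the entry enzyme of the cycle, stood at 517, 517 and 541 CPM at day 0 and at 505, 425 and 299 CPM at 30 h. The groups did not overlap, yet the 30 h spread was wide and Cs was not called (log2 change -0.36, edgeR adjusted p = 0.10083). It passed as lower both without 30h replicate 3 (-0.17, edgeR adjusted p = 0.04815) and without 30h replicate 1 (-0.48, adjusted p = 0.01324). Idh3a, the catalytic subunit of the NAD-dependent isocitrate dehydrogenase, went from 263, 264 and 272 CPM to 177, 169 and 205 CPM. It fell 1.45-fold (edgeR adjusted p = 0.001706). Idh3b, a further subunit, went from 189, 187 and 188 CPM to 257, 250 and 264 CPM and rose 1.37-fold (edgeR adjusted p = 0.0015097), but its log2 change was -0.04 with totals-only scaling. Idh3g, the regulatory gamma subunit, overlapped between groups at 189, 198 and 190 CPM and 217, 208 and 174 CPM (edgeR adjusted p = 0.65745). It passed as higher without 30h replicate 3 (log2 change 0.15, edgeR adjusted p = 0.0269). The ratio of Idh3b to Idh3g per kb of exon was above day 0 in every 30 h library and went from 0.772 ± 0.0237 to 1.03 ± 0.147 (SD, n = 3 each).

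Among further cycle genes of the separate list, Aco1, an iron regulatory protein that also acts as cytosolic aconitase, fell from 102 ± 1.99 to 31.1 ± 8.67 CPM (SD, n = 3 each, edgeR adjusted p = 0.00011076). Sdha, the flavoprotein of succinate dehydrogenase, stood at 448 ± 4.99 and 366 ± 60.5 CPM and was not called (edgeR adjusted p = 0.070563). It passed as lower without 30h replicate 1 (log2 change -0.36, edgeR adjusted p = 0.01609) and without replicate 3 (-0.17, adjusted p = 0.02806). Sdha also passed as lower with upper-quartile scaling (edgeR adjusted p = 0.004601), no filter on low counts (0.0186), the GC trend removed (0.03934) and totals only (0.00112). It did not pass in the remaining alternatives. Sdhb, the iron-sulfur subunit of the same enzyme, rose from 196 ± 1.07 to 246 ± 14.4 CPM (edgeR adjusted p = 0.010559). That call ended without day 0 replicate 1, 2 or 3 (edgeR adjusted p = 0.05772, 0.05781 and 0.05759) and with upper-quartile scaling (adjusted p = 0.1577), and the log2 change of Sdhb was -0.16 with totals-only scaling.

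Both NADP-dependent isocitrate dehydrogenases fell. Idh2, the mitochondrial enzyme, which supplies NADPH there, went from 319, 320 and 299 CPM to 109, 117 and 125 CPM, a 2.68-fold fall (edgeR adjusted p = 6.6899e-06). Idh1, its cytosolic counterpart, went from 104, 107 and 97.2 CPM to 52.8, 57.4 and 65.0 CPM, a 1.76-fold fall (edgeR adjusted p = 0.00023525). Groups of both genes were separate. Both were among the 8 of the 30 genes that were lowest in 30h replicate 1, as were Dld and Pdp1, which rose. The summed hepatoblast markers were also lowest in that library, and their part in the result was not tested. Per kb of exon the ratio of Idh1 to Idh2 went from 0.307 ± 0.00385 to 0.467 ± 0.0183 (SD, n = 3 each), so Idh2 remained the more abundant transcript.

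At the succinyl-CoA steps, partner subunits also went different ways. Succinyl-CoA is made by the 2-oxoglutarate dehydrogenase complex. Ogdh, its E1 component, stood at 344, 357 and 353 CPM at day 0 and at 318, 252 and 151 CPM at 30 h. All 30 h libraries were below day 0, but their coefficient of variation was 35.0% and Ogdh was not called (log2 change -0.55, edgeR adjusted p = 0.066383). It passed as lower without 30h replicate 3 (-0.30, edgeR adjusted p = 0.01013), without 30h replicate 1 (-0.75, adjusted p = 0.005677), in DESeq2 (-0.51, adjusted p = 0.03929) and when the replicate number entered as a block (-0.61, edgeR adjusted p = 0.03667). Dlst, the E2 succinyltransferase, overlapped between groups at 332, 327 and 326 CPM and 362, 350 and 280 CPM (edgeR adjusted p = 0.9467). Without 30h replicate 3 Dlst passed as higher (log2 change 0.12, edgeR adjusted p = 0.04943). Ogdhl, a paralog of Ogdh from the separate list, was low and had the largest fall of that list, from 9.36 ± 1.32 to 1.64 ± 0.394 CPM (SD, n = 3 each, edgeR adjusted p = 2.0227e-05).

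Succinyl-CoA synthetase, which interconverts succinyl-CoA and succinate, pairs a shared alpha subunit with 1 of 2 beta subunits. Suclg1, the alpha subunit, went from 210, 203 and 213 CPM to 155, 162 and 187 CPM, a 1.24-fold fall (edgeR adjusted p = 0.02352). That call did not hold with DESeq2 (adjusted p = 0.08912), or on leaving out day 0 replicate 1, 2 or 3 or 30h replicate 1 or 2 (edgeR adjusted p = 0.07099, 0.05138, 0.07395, 0.1733 and 0.08209). Suclg2, the GTP-specific beta subunit (chromosome 6, 95473009 to 95718800), stood at 73.0, 72.8 and 73.5 CPM at day 0 and at 27.7, 26.0 and 26.0 CPM at 30 h. Values lay close together within each group, and it fell 2.75-fold (log2 change -1.46, SE 0.09, edgeR adjusted p = 4.3525e-06). Sucla2, the ATP-specific beta subunit, went from 106, 99.6 and 104 CPM to 110, 114 and 141 CPM. Every 30 h library was above every day 0 library, as in 36.3% of all genes, but Sucla2 was not called (log2 change 0.24, edgeR adjusted p = 0.10063). It passed as higher without 30h replicate 1 (0.37, edgeR adjusted p = 0.03235), and its log2 change was -0.26 with totals-only scaling.

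The ratio of the beta subunits does not depend on library scaling. Per kb of exon, Sucla2 over Suclg2 was 1.69, 1.59 and 1.64 in the day 0 libraries and 4.59, 5.08 and 6.29 in the 30 h libraries, a 3.22-fold change with no overlap between groups. Of 9 such ratios compared, 8 separated the groups, each with a two-sided exact permutation p of 0.1 (adjusted over the 9, p = 0.1125), the lower limit of such a test with 3 libraries a side. Of all single genes tested, 79.7% also separated the groups. No share over other gene pairs is given here, so the separation is not read as particular to these pairs. The exception was Dlst to Suclg1, at 0.760 ± 0.0199 and 0.963 ± 0.214 (SD, n = 3 each, exact permutation p = 0.4, adjusted p = 0.4).

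**Figure D4:**
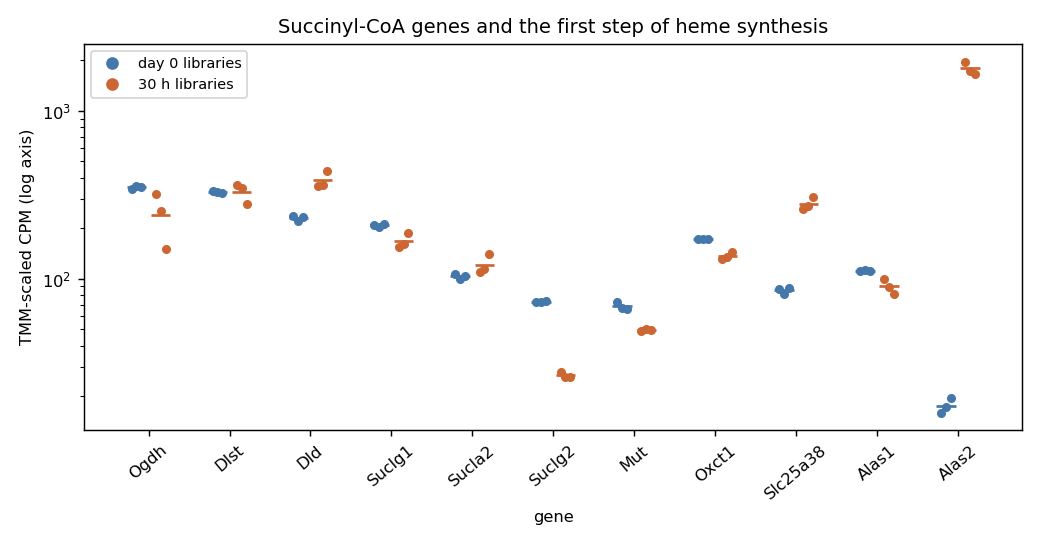
TMM-scaled CPM on a log axis is shown for each library (points) with group means (lines) for genes that make or use succinyl-CoA and for the glycine carrier Slc25a38. Alas2 goes from 17.5 to 1791 CPM on average, whereas the genes of 2-oxoglutarate dehydrogenase and succinyl-CoA synthetase stay within a 3-fold range of their day 0 means.

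On the heme side of succinyl-CoA, the synthase and the glycine carrier were far higher at 30 h. Alas2, the erythroid 5-aminolevulinate synthase, which condenses succinyl-CoA with glycine, stood at 16.0, 17.2 and 19.4 CPM at day 0 and at 1968, 1735 and 1669 CPM at 30 h. Against the alpha subunit of the synthetase, the ratio of Alas2 to Suclg1 per kb of exon went from 0.162 ± 0.0148 to 20.7 ± 3.61 (SD, n = 3 each). Alas1, the synthase of other tissues, fell 1.24-fold, from 112, 112 and 111 CPM to 99.1, 89.7 and 81.2 CPM (edgeR adjusted p = 0.023463). The Alas1 call ended when the GC trend was removed (edgeR adjusted p = 0.1439). It also ended on leaving out day 0 replicate 1, 2 or 3 or 30h replicate 2 (edgeR adjusted p = 0.0697, 0.06918, 0.06314 and 0.0705). Slc25a38, the carrier that brings glycine into mitochondria, rose from 85.4 ± 3.72 to 280.5 ± 24.2 CPM, or 3.29-fold (edgeR adjusted p = 3.8896e-06). Clpx, an unfoldase that activates the synthase, rose 1.46-fold (edgeR adjusted p = 0.00063011), and with totals-only scaling its log2 change of 0.55 became 0.06 (adjusted p = 0.5902).

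Among genes of the propionate route to succinyl-CoA and of ketone body use, some fell, Mmaa rose, and Mcee and Mmab were not called. Mut, methylmalonyl-CoA mutase, which delivers succinyl-CoA from propionate, fell from 68.7 ± 3.55 to 49.9 ± 0.701 CPM (SD, n = 3 each, edgeR adjusted p = 0.0018748). Oxct1, which spends succinyl-CoA to activate ketone bodies, fell from 173 ± 0.869 to 137 ± 6.60 CPM (edgeR adjusted p = 0.0084229), a call that ended without 30h replicate 1 (adjusted p = 0.06128). In all, 4 of 11 genes on the list of other succinyl-CoA sources, users and helpers rose and 5 fell. That is 81.8% called, against 74.5% of all genes. The 4 that rose were Alas2, Slc25a38, Clpx and Mmaa, a helper protein of the mutase. The 5 that fell were Mut, Oxct1, Alas1 and both subunits of propionyl-CoA carboxylase, Pcca and Pccb. Pcca fell 1.55-fold (edgeR adjusted p = 0.00035554). The fall of Pccb was 1.22-fold (edgeR adjusted p = 0.021637), and that call ended in DESeq2 (adjusted p = 0.06001), with the replicate number as block (edgeR adjusted p = 0.0641), with the GC trend removed (0.08224), and without any 1 library other than 30h replicate 3 (0.05097 to 0.1264). The Mmaa call ended with totals-only scaling (log2 change 0.27, edgeR adjusted p = 0.0699). Of the 5 genes of the branched-chain 2-oxoacid dehydrogenase, which shares Dld, 3 fell and 2 were not called. That is 60.0% called, against 74.5% of all genes. Bckdhb, the E1 beta subunit of that enzyme, went from 23.6 ± 1.58 to 5.47 ± 1.60 CPM (edgeR adjusted p = 3.3167e-05).

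Sequences before the start sites of Suclg2 and Alas2 are shown because these genes carry the contrast around succinyl-CoA (RefSeq, GRCm38.p6, 5′ to 3′, cut where an annotated transcript begins). Suclg2 lies on the minus strand (chr6:95718859-95719096) and Alas2 on the plus strand (chrX:150547167-150547374). Capitals mark CCAAT and GATAA, on either strand, so that TTATC is GATAA read on the other strand.
Suclg2: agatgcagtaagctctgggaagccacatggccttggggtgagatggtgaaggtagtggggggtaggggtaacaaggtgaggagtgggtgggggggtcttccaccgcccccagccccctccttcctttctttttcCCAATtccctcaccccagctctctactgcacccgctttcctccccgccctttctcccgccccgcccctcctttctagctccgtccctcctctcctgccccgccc
Alas2: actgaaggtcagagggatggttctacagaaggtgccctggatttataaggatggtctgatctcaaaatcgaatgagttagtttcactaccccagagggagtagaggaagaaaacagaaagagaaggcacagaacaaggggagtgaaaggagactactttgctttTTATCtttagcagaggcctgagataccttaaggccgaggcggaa
In these windows the Suclg2 sequence holds 1 CCAAT and the Alas2 sequence 1 GATAA.

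Of the last steps of the cycle, 1 of 2 genes fell. Fh1, fumarase, stood at 248, 240 and 241 CPM and then at 215, 214 and 228 CPM. Every 30 h library was below every day 0 library, as in 43.4% of all genes, but Fh1 was not called (log2 change -0.15, edgeR adjusted p = 0.14299). Without 30h replicate 3 it passed as lower (-0.18, edgeR adjusted p = 0.009572). Fh1 also passed as lower with upper-quartile scaling (edgeR adjusted p = 0.04513), with the GC trend removed (0.03379) and with totals only (0.0002087). It did not pass in the remaining alternatives, such as without 30h replicate 1 (log2 change -0.08, edgeR adjusted p = 0.5273). Mdh2, mitochondrial malate dehydrogenase, which regenerates oxaloacetate, went from 548, 562 and 555 CPM to 478, 450 and 415 CPM. It fell 1.24-fold (edgeR adjusted p = 0.016119) and became the most abundant of the 30 genes per kb of exon at 30 h. Leaving out day 0 replicate 1, 2 or 3 or 30h replicate 2 ended that call (edgeR adjusted p = 0.05081, 0.05586, 0.05293 and 0.0527).

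Genes of the malate-aspartate shuttle, which carries reducing power from the cytosol into mitochondria, fell in 2 of 3 cases. That is 66.7% called, against 74.5% of all genes. Mdh1, cytosolic malate dehydrogenase, went from 263, 253 and 261 CPM to 153, 149 and 144 CPM, a 1.74-fold fall (edgeR adjusted p = 7.237e-05). Got2, the mitochondrial aspartate aminotransferase, went from 180, 176 and 162 CPM to 61.4, 52.2 and 39.5 CPM, a 3.39-fold fall (edgeR adjusted p = 3.376e-05). Got1, the cytosolic aminotransferase, overlapped between groups at 76.3, 77.7 and 74.3 CPM and 86.8, 77.2 and 55.2 CPM (edgeR adjusted p = 0.75863). Per kb of exon the ratio of Got1 to Got2 was 0.806, 0.837 and 0.870 at day 0 and 2.69, 2.81 and 2.65 at 30 h, so Got2 was above Got1 in every day 0 library and below it in every 30 h library. Got2 and Acly were among the 19 of the 30 genes that were highest in 30h replicate 1. The summed hepatoblast markers were lowest in that library, and their part in the result was not tested. Slc25a13, a carrier that moves aspartate out of mitochondria, fell 3.42-fold, from 119 ± 5.46 to 34.7 ± 6.94 CPM (SD, n = 3 each, edgeR adjusted p = 2.4703e-05). Its close relative Slc25a12 stood at 88.9 ± 3.15 and 82.9 ± 10.3 CPM (edgeR adjusted p = 0.44889), and passed as lower with upper-quartile scaling (log2 change -0.24, adjusted p = 0.03303) and with totals only (-0.59, adjusted p = 0.002607).

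**Figure D5:**
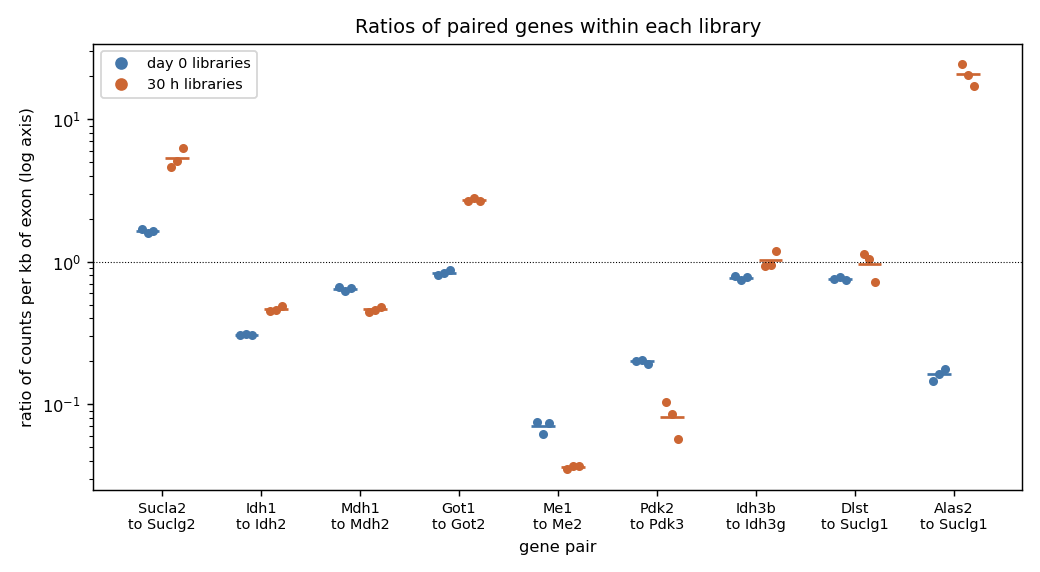
Ratios of counts per kb of exon within each library (points) and their group means (lines) are plotted on a log axis for 9 gene pairs, with a dotted line at equal levels. Sucla2 to Suclg2 and Got1 to Got2 are higher at 30 h, Me1 to Me2 and Pdk2 to Pdk3 are lower, and of the 9 pairs the groups overlap for Dlst to Suclg1.

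Ratios of the remaining pairs also differed between groups. Mdh1 to Mdh2 went from 0.647 ± 0.0204 to 0.462 ± 0.0193, Me1 to Me2 from 0.0702 ± 0.00705 to 0.0360 ± 0.00106, and Pdk2 to Pdk3 from 0.199 ± 0.00695 to 0.0813 ± 0.0235 (SD, n = 3 each). Of all 30 members, 24 had no overlap between groups, with 30 h above in 9 and below in 15, against 79.7% of all genes. Of the 49 linked genes tested from the separate lists, 11 rose and 23 fell, with a median log2 change of -0.29. That is 69.4% called, against 74.5% of all genes. Without 30h replicate 3 these counts were 14 and 25, against 78.7% of all genes called.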

How the data were processed

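RNA was measured in 6 libraries, 3 per group, grouped and numbered by their titles. The authors deposited unnormalized counts per Ensembl gene, 1 file a library. Tools listed in the submitters' processing notes are STAR, HTSeq 0.6.1p1, cutadapt 1.13 and DESeq2, with build mm10. The strand setting was not given in the sources used here. Symbols, positions and exon lengths came from GENCODE M21 (GRCm38, the assembly of mm10), where 54165 of 54232 IDs were found. The 37 mitochondrial genome genes had 0 counts.

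Genes passing edgeR's filterByExpr (16150) were scaled by TMM and tested with the robust quasi-likelihood F test (edgeR 4.0.16, R 4.3.3), Benjamini-Hochberg adjusted over all genes, threshold 0.05. SEs were derived from the F statistic. CPM are relative to TMM-scaled totals, and levels between genes were compared per kb of merged exon. The edgeR fit was tried on simulated counts with few changed genes and the same spread in both groups. These data differ in both respects, so that run does not show how scaling or error rates hold here. Ratios and shares used exact permutation tests (scipy 1.17.1). Alternatives were DESeq2 1.42.0, limma-trend (limma 3.58.1), other scalings and filters, the replicate block, a test against 1.5-fold, each library left out, and removal of the GC trend, for which GC came from each gene's longest transcript. Members and lists were chosen with earlier results of these data known, and every member is named. Of the separate lists, those named were the largest rise and fall past the threshold (Alas2 and Ogdhl), Sdha, Alas1 and Alas2 by name, and others with a mean of at least 1 CPM. Some genes of these lists are not reported here. The separate lists hold 52 gene IDs, 2 of them for Nnt.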

Additional observations from a re-analysis of the deposited data

How the results depend on the processing

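Each of the 30 genes was refitted under 17 alternatives. Of the 20 called, 12 kept direction and call in all of them (4 higher, 8 lower), 14 when the test against a 1.5-fold change is set aside, and 1 changed direction, Idh3b. No such share over all genes is given here, so these counts are not read as particular to the members. Scaling mattered most. With totals only, 3601 genes were higher of all tested, the members split into 5 higher and 20 lower, and the linked genes into 6 and 36, beside 8791 lower of all tested. Log2 changes of opposite sign under that setting were -0.41 for Pdhx, -0.038 for Idh3b, -0.432 for Idh3g, -0.477 for Dlst, -0.255 for Sucla2, -0.237 for Me1 and -0.163 for Sdhb. Against a 1.5-fold change, 5 members were higher and 8 lower and the linked genes gave 6 and 13. Other changes of sign were in genes not called. With upper-quartile scaling they were -0.055 for Pdhx, -0.086 for Idh3g and -0.134 for Dlst. With no filter on low counts they were -0.014 for Pdhx, -0.04 for Idh3g and -0.087 for Dlst. With the GC trend removed they were -0.101 for Pdhx, 0.079 for Pdk2, -0.035 for Dlst, -0.09 for Sucla2 and 0.055 for Got1. With single libraries left out, Dlst ranged from -0.038 to 0.12, Pdk2 from -0.482 to 0.019 and Got1 from -0.147 to 0.113. The cause of these shifts was not tested.

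The replicate number as a block gave 8 members higher and 13 lower, the added call being Ogdh. Deviations of same-numbered libraries correlated at -0.105, 0.105 and -0.029, so the numbers were not taken as pairs. Ratios kept their direction with each library left out. The change of a ratio cannot depend on the length measure, because length cancels out, but its level does. With the longest transcript in place of merged exons, mean Dlst to Suclg1 was 1.35 at day 0 and 1.71 at 30 h, against 0.760 and 0.963. Mean Pdha1 to Pdhb at 30 h was 0.949, against 1.18, and levels of other ratios also shifted. With 3 libraries per group and a wider spread at 30 h (biological coefficient of variation 20.2%, against 5.27% at day 0), changes as small as those of Suclg1 or Mdh2 were at the edge of what could be called.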

Other observations

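Genes that make or attach lipoate, the cofactor of Dlat, Dlst and the branched-chain E2, went both ways. Lias, lipoate synthase, rose from 77.4 ± 3.18 to 110 ± 9.67 CPM (SD, n = 3 each, edgeR adjusted p = 0.0021799), a call that ended with totals-only scaling (log2 change 0.012, adjusted p = 0.9133). Lipt1 and Lipt2, which transfer lipoyl and octanoyl groups, fell from 7.30 ± 0.376 to 3.02 ± 0.507 CPM and from 19.7 ± 0.710 to 7.97 ± 1.90 CPM (edgeR adjusted p = 0.00018835 and 0.00019556).

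The 30 genes lie on 15 chromosomes. GC content of their longest transcripts ran from 39.2% (Pdp1) to 57.7% (Pcx), with a median of 47.4% against 49.9% over 16144 genes tested. Spearman's rho between GC content and log2 change was -0.18 across the 30 genes and -0.20 across all genes tested, a description across genes of the same 6 libraries.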
